A study of Mus musculus with 33 samples.

Results

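miR-221 and miR-222 are a pair of small RNAs processed from neighbouring hairpins on the mouse X chromosome. Both members were taken by their names in the scanner files, mmu-miR-221 and mmu-miR-222, which are 2 of 650 miRNAs on the array and are read by 4 of 1857 probes. The pair was chosen by values of these lungs on day 1, when 4 of 6 exposed arrays and 0 of 6 control arrays detected miR-222, so every day 1 value is given as a description with no test. Lung miRNA was measured in 33 female C57BL/6 mice, an inbred laboratory strain, with 1 one-colour array per mouse. Into the trachea of exposed mice went 0.162 mg Printex 90, nanosized carbon black particles. Control mice received the vehicle that all groups shared, MilliQ water with 0.9% NaCl and 10% by volume of acellular BAL (cell-free lung lavage fluid). The lungs were taken on day 1 (6 control, 6 exposed), day 3 (6 control, 4 exposed) or day 28 (6 control, 5 exposed), and the mice's age was not given in the labels.

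A miRNA guides a silencing complex to messenger RNAs, mainly through its seed, bases 2 to 8, so miRNAs that share a seed can share targets. miR-221 and miR-222 are known for repressing the cell cycle inhibitors Cdkn1b and Cdkn1c, which lets cells divide, and the stem cell factor receptor Kit. They are abundant in blood vessel walls, where they restrain endothelial growth and promote smooth muscle growth.

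The mature sequences are shown because the shared seed is what defines the pair, with the seed in capitals. Both members and their hairpins were matched by name in RefSeq, whose 3′ arms were taken as the miRNAs of the array, since the array names carry no arm.
miR-221-3p: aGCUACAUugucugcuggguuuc
miR-222-3p: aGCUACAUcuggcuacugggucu
miR-1928: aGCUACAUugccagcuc

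Compared from the 5′ end, the 2 members were identical in the first 8 bases and at 11 of 23 positions in all. After base 8, 3 of 15 positions were the same when compared without gaps, and both members carry CUGGGU there at shifted positions. The probe sequences were not used, so how well a probe tells the members apart was not tested. Of 1738 mature mouse miRNAs in the RefSeq table, 3 carried this seed. The third, miR-1928 on the minus strand of chromosome 1 (chr1:74206562-74206578), was not found under that name on the array. It matched miR-221 over its first 10 bases.

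The hairpins show how close together the pair lies in the genome, with the mature miRNA in capitals. In the RefSeq annotation of GRCm38.p6, Mir221 lies at chrX:19146294-19146388 and Mir222 at chrX:19146893-19146971, both on the minus strand and 504 bases apart. No other annotated gene overlaps them, and the nearest listed gene is the long non-coding RNA Gm14636, 9500 bases away.
Mir221: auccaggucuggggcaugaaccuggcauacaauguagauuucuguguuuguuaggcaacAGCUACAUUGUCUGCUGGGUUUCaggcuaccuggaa
Mir222: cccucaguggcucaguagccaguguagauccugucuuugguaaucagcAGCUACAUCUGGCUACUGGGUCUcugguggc

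In both hairpins the mature miRNA sits towards the 3′ end, at bases 60 to 82 of 95 in Mir221 and at bases 49 to 71 of 79 in Mir222. No array name carried the other arm of either hairpin, so that arm has no value here.

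The arrays differed in brightness, given as the 75th percentile of the probes detected on all arrays, which ran from 187 to 1211 units. Its group medians were 365 units in control and 666 in exposed lungs on day 1, 635 and 625 on day 3, and 985 and 481 on day 28. The files place the arrays on 9 slides, scanned on 5 days, and every slide held its control lungs in positions 1 and 2 and its exposed lungs in positions 3 and 4, so that exposure and array position cannot be told apart. Of the lung markers, miR-126-3p (endothelium), miR-143 (smooth muscle) and all 5 epithelial miRNAs of the miR-200 family were above background on 33 of 33 arrays. The second endothelial arm, miR-126-5p, was above background on 23 arrays and the second smooth muscle marker, miR-145, on 1. Of the heart and skeletal muscle markers, miR-1 was above background on 31 arrays, miR-133b on 16, miR-133a on 10 and miR-206 on 0. The liver marker miR-122 was so on 21 and the brain markers miR-124 and miR-9 on 0. In whole lung, fewer cells of a type and less RNA per cell cannot be told apart.

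miR-221 was measured well in every lung. The scanner software marks each spot as well above background or not, and an array was taken to detect a miRNA, or to have it above background, if 1 of its probes had most unflagged spots so marked. By this rule miR-221 was detected on 33 of 33 arrays. Its 10 spots of the brighter probe had a median coefficient of variation of 7.07% within an array (range 3.26 to 26.7%). The second probe of miR-221 was above background on 32 arrays.

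miR-222 lay near the limit of detection. It was above background on 15 of 33 arrays, all 15 through its brighter probe, whose spots varied by a median of 23.3% (6.25 to 89.1%). The dimmer probe was above background on 5 arrays. Before scaling, the brighter probe read 2.46 to 23.3 units, where the negative control spots of the same arrays had means of 1.89 to 3.50 units. Replicates are numbered through the whole series, 1 per lung. Control day 1 replicate 27, on the dimmest array (187 units), read 2.46 units against a negative control mean of 3.08, and scaling set it at 8.24.

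**Figure D1:**
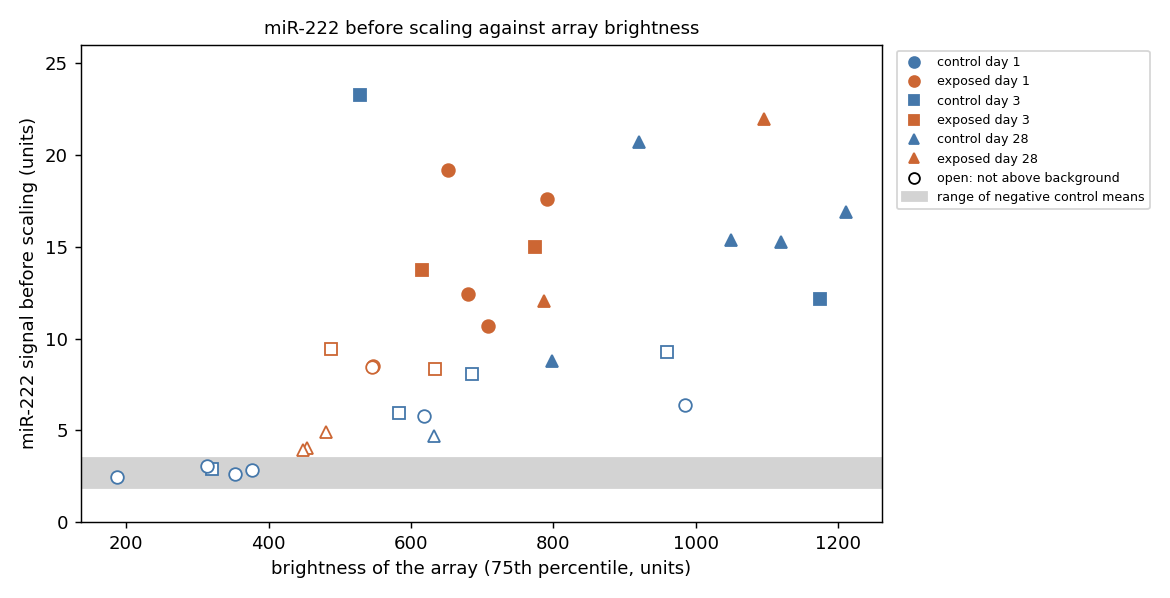
miR-222 signal of the brighter probe before scaling (units, vertical) against the brightness of each of the 33 arrays (75th percentile, units, horizontal), with colour for exposure, shape for day, and filled symbols for arrays above background. Control lungs of day 1 lie between 2.46 and 6.39 units, exposed lungs of day 1 between 8.43 and 19.2, and the grey band gives the negative control means, 1.89 to 3.50.

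The level of miR-221 hardly differed between the 6 groups. Scaled signals are in units after every array was set to the same 75th percentile. In control lungs of day 1 they had a lowest value of 65.3, a median of 75.04 and a highest of 138. The same values were 69.5, 76.7 and 107 in exposed lungs of day 1. All groups overlapped, and in each group the highest arrays were those of the first slides, as described further on.

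In control lungs of day 3, miR-221 ran from 71.1 through a median of 85.7 to 111. The 4 exposed lungs of day 3 read 74.9, 80.8, 101 and 128. Control lungs of day 28 ran from 68.7 through 83.3 to 116, and the 5 exposed lungs read 56.2, 69.3, 76.4, 109 and 112. From highest to lowest, the mean log2 scaled signal of miR-221 was 6.55 ± 0.35 (SD, n = 4) in exposed lungs of day 3, 6.47 ± 0.26 (n = 6) in control lungs of day 3 and 6.44 ± 0.32 (n = 6) in control lungs of day 28. It was 6.40 ± 0.42 (n = 6) in control and 6.36 ± 0.27 (n = 6) in exposed lungs of day 1, and 6.35 ± 0.43 (n = 5) in exposed lungs of day 28. The whole range of group means was 0.20, smaller than the SD of any group, so no neighbours in this order differed beyond their spread.

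miR-222 had a wider range of group means, 1.10 on the log2 scale. Exposed lungs of day 1 had a mean of 3.56 ± 0.38 (SD, n = 6), exposed lungs of day 3 of 3.52 ± 0.33 (n = 4), and control lungs of day 28 of 3.04 ± 0.53 (n = 6). Below them were control lungs of day 3 at 3.03 ± 0.87 (n = 6), exposed lungs of day 28 at 2.91 ± 0.53 (n = 5) and control lungs of day 1 at 2.45 ± 0.36 (n = 6). The gap between neighbours was smaller than the larger of their SDs at each of the 5 steps. It came to 0.47 between exposed day 3 and control day 28, and to 0.46 between exposed day 28 and control day 1.

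**Figure D2:**
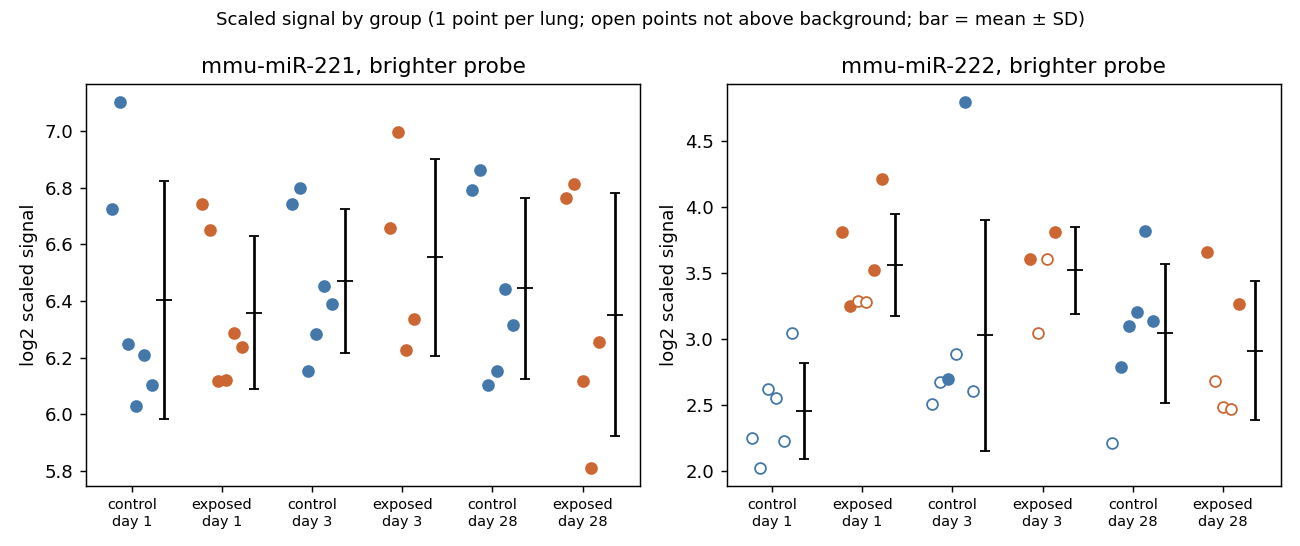
Log2 scaled signal of the brighter probe of miR-221 (left) and miR-222 (right), 1 point per lung in the 6 groups, with filled points above background, open points not above it, and a bar for the mean ± SD. The groups of miR-221 overlap throughout, while the control lungs of day 1 are the lowest group of miR-222, at 2.45, and hold no filled point.

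Day 1 was the day that singled out the pair, so its values are a description. The miR-222 difference was above 0 in 13 of 14 alternative settings, all but normexp. It ran from -0.36 with normexp to 2.86 by total gene signal. These settings reuse the lungs that chose the pair, so nothing is read from the count. The scaled signal of miR-222 had a lowest value of 4.08, a median of 5.32 and a highest of 8.24 in control lungs. In exposed lungs these were 9.49, 10.6 and 18.5. The groups did not overlap, which in that direction held for 1 of 172 tested miRNAs (0.581%), miR-222 itself, and nothing is read from it because this contrast chose the pair.

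Detection gave the count that chose the pair, 4 of 6 exposed against 0 of 6 control arrays. A pattern of at least 4 exposed and 0 control arrays was shared by 3 of 611 mouse miRNAs (0.491%): miR-222, miR-155 and miR-17*. The 2 exposed lungs below that line, replicates 15 and 19, read 8.50 and 8.43 units before scaling, on arrays of 547 and 545 units. The exposed arrays of day 1 were the brighter group, and for 79 of 611 mouse miRNAs (12.9%) a larger share of exposed arrays gave detection, against 5 (0.818%) for control arrays. The part of brightness in the day 1 count was not tested.

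The fitted day 1 difference of miR-222 was 1.10 ± 0.31 (log2, SE), from limma with no test. Because none of the control lungs of day 1 was above background, their level is only a bound. That bound, the mean over control arrays of the lowest signal of any detected probe, was 4.04 (log2). The exposed mean, 3.56, lay below it, so no fold is given. The lowest detected signal ran from 8.25 to 36.7 scaled units between these arrays, so the exposed mean was not below it on every array. The value moved with the processing: it was -0.36 after normexp background correction, where the median of all 172 miRNAs was -0.36 too, 0.26 with a floor of 10 units, 0.18 in the authors' series table, 1.76 without scaling and 2.86 from the scanner's total gene signal. The median of all miRNAs was 0.56 without scaling and 0.058 by total gene signal. With the median subtracted, miR-222 was at 1.20 both in the main run and without scaling. Paired by slide, the difference of miR-222 was positive in 6 of 6 pairs, from 0.67 to 1.55. All pairs of day 1 went that way for 4 of 172 miRNAs (2.33%). The 4 pairs with a brighter exposed array gave 0.67, 1.17, 1.29 and 1.55, and the 2 with a dimmer one gave 0.73 and 1.22. The dimmer probe of miR-222 differed by 1.87 and was also higher in 6 of 6 pairs. It was above background on 0 of 6 control and 2 of 6 exposed arrays of day 1. Its control signals before scaling were 0.41 to 3.74 units, beside negative control means of 2.18 to 3.50, and 1 array was at the floor. The size of this difference is therefore not a measure of change.

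miR-221 differed on day 1 by -0.04 ± 0.19 (log2, SE). Its slide pairs ran from -0.45 to 0.13 with 4 of 6 above 0. Its second probe gave 0.19, so the probes of miR-221 differed in sign at a size below the spread of the groups.

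On day 3, neither member changed by the test. The values that chose the pair were those of day 1, though the choice was made with earlier results of these data known. limma was fitted to the log2 scaled signal of 172 miRNAs, those above background on at least 4 arrays of a group, with Benjamini-Hochberg adjustment, and 0 of the 172 (0%) passed an adjusted p under 0.05. Unadjusted, 2 (1.16%) had a p under 0.05 with a higher value and 0 (0%) with a lower one, and neither member was among them. miR-222 read 5.68 to 27.7 in control lungs, with a median of 6.44. It read 8.27, 12.2, 12.2 and 14.0 in the 4 exposed lungs.

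Thus 5 of 6 control lungs of day 3, at 5.68 to 7.39, lay below every exposed lung, and the sixth, replicate 25, lay above all of them. The fitted difference was 0.49 ± 0.35 (log2, SE; limma adjusted p = 0.996), with a 95% interval of -0.23 to 1.21. It ranked 6th among the 172 miRNAs from the highest downward, whose median difference was -0.036. Detection of miR-222 was seen in 2 of 4 exposed and in 2 of 6 control lungs (Fisher's exact test, two-sided, p = 1). Over all mouse miRNAs, 28 (4.58%) had a larger share of exposed arrays with detection and 44 (7.2%) a larger share of control arrays.

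Control day 3 replicate 25 carried the highest miR-222 of all 33 lungs, 27.7 units scaled and 23.3 before scaling. All 10 spots of both miR-222 probes were above background on that array, whose brightness was 528 units. Without this lung the day 3 difference was 0.84 ± 0.28 (limma, adjusted p = 1.00; unadjusted p = 0.0060, one of 3 miRNAs, 1.74%, with a higher value under 0.05). The groups then did not overlap, as for 1 of 172 miRNAs in that direction (0.581%), and leaving out this lung was a choice made after its value was seen. No label sets this lung apart, so it stays in the values above.

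Paired by slide, miR-222 was higher in the exposed lung of 4 of 4 pairs on day 3, by 0.37, 0.91, 1.10 and 1.21. All 4 pairs went that way for 5 of 172 miRNAs (2.91%). The exposed array was the dimmer of the pair for the values of 0.91 and 1.21 and the brighter for the others. Replicate 25 is in none of these pairs, since its slide held no exposed lung of day 3. With slide as a block the difference was 0.61 as a fixed term (limma adjusted p = 0.931) and 0.56 as a random term (0.984), so it did not pass with either. The dimmer probe gave 0.40, with 3 of 4 pairs higher.

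For miR-221 the day 3 difference was 0.08 ± 0.22 (limma adjusted p = 0.996; 95% interval -0.35 to 0.52), with 2 of 4 pairs above 0. It was -0.02 with slide as a fixed block, and the second probe gave 0.20 with 4 of 4 pairs above 0. miR-221 was above background in all lungs of day 3.

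On day 28 neither member changed by the test either. Again 0 of 172 miRNAs (0%) passed, and limma gave an unadjusted p under 0.05 to 9 higher (5.23%) and 4 lower (2.33%) miRNAs, neither member among them. miR-222 read 4.65 to 14.1 in control lungs, with a median of 8.66. It read 5.54, 5.60, 6.43, 9.62 and 12.6 in the 5 exposed lungs, within the range of the controls.

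The difference of miR-222 was -0.13 ± 0.33 (log2, SE; limma adjusted p = 0.986; 95% interval -0.80 to 0.54). It was detected in 2 of 5 exposed and in 5 of 6 control lungs (Fisher's exact test, two-sided, p = 0.242). On this day the control arrays were the brighter group, and for 68 of 611 mouse miRNAs (11.1%) a larger share of control arrays gave detection, against 21 (3.44%) for exposed arrays. The part of brightness in this count was not tested.

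Of the 5 slide pairs of day 28, 1 was higher for miR-222 (1.44, on slide 2) and 4 were lower (-0.10, -0.55, -0.61 and -0.73). At least 4 lower pairs were seen for 52 of 172 miRNAs (30.2%). The pair on slide 2 was the only one of the 5 with a brighter exposed array, by 1.73 times. In the 4 lower pairs the exposed array had 0.405 to 0.855 of the brightness of the control array. The dimmer probe of miR-222 gave -0.22, with 1 of 5 pairs higher.

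For miR-221 the day 28 difference was -0.09 ± 0.20 (limma adjusted p = 0.986; 95% interval -0.50 to 0.32), with 1 of 5 pairs above 0 and 4 below. At least 4 lower pairs were seen for 52 of 172 miRNAs (30.2%), as given above. The difference of miR-221 rested on few lungs: without exposed day 28 replicate 23, the lowest of all at 56.2 units, it was 0.04. Its second probe gave -0.051, with 2 of 5 pairs above 0.

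**Figure D3:**
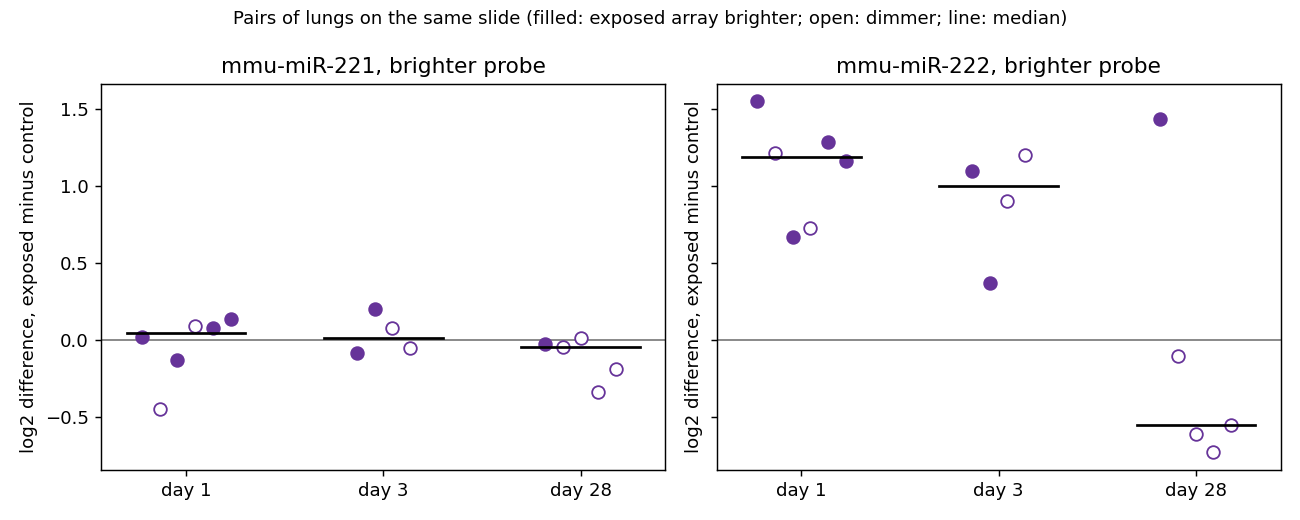
Difference in log2 scaled signal between the exposed and the control lung of the same day on the same slide, for the brighter probe of miR-221 (left) and miR-222 (right), with filled points where the exposed array was the brighter of the pair and a line at the median of each day. The pairs of miR-222 lie above 0 in 6 of 6 on day 1, 4 of 4 on day 3 and 1 of 5 on day 28, while those of miR-221 stay between -0.45 and 0.20.

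The change between day 3 and day 28 was tested directly. For miR-222 the difference between exposed and control lungs was lower on day 28 than on day 3 by a value of -0.62 ± 0.48 (log2, SE; limma adjusted p = 0.999). Without control day 3 replicate 25 it was -0.97. That lung was left out after its value was seen, so no p is given for this value. For miR-221 it was -0.18 ± 0.29 (adjusted p = 0.999). In this contrast, with all lungs kept, 0 of 172 miRNAs (0%) passed. The unadjusted p of limma was under 0.05 for 2 miRNAs with a higher value (1.16%) and 1 with a lower one (0.581%). Neither member was among them, so no difference between the days was found for either.

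Within exposed lungs, miR-222 differed between day 28 and day 3 by -0.61 ± 0.36 (limma adjusted p = 0.391), and miR-221 by -0.20 ± 0.22 (adjusted p = 0.660). In this contrast 3 of 172 miRNAs (1.74%) passed. Within control lungs the day 28 minus day 3 values were 0.02 ± 0.31 for miR-222 (adjusted p = 0.972) and -0.03 ± 0.19 for miR-221 (adjusted p = 0.969), with 1 of 172 (0.581%) passing. Both control values are small beside their errors, and their signs turned under several settings. These contrasts share their lungs with the day 3 and day 28 comparisons above.

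The signal of miR-221 differed more between slides than between groups. The 12 arrays of slides 1 to 3, scanned on the first 2 scan days, had log2 scaled signals of 6.65 to 7.10. The 21 arrays of slides 4 to 9 had 5.81 to 6.45, so the 2 sets did not overlap. Among the 172 tested miRNAs this held for miR-221 alone (0.581%), a split noticed in the values of miR-221 and therefore given with no test. Each of the slides 1 to 3 held both control and exposed lungs.

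Slide took 88.9% of the variance of miR-221 over the 33 arrays, the second highest share among the 172 miRNAs, whose median was 49.3%. Scan day took 85.4%, also rank 2, where the median was 36.4%. Every slide was scanned on a single day, so the parts of slide and scan day were not separated. There were 9 slides and 6 groups, and a factor with more levels takes more variance. Group took 4.10%, rank 163, where the median was 20.4%. For miR-222 the order was turned: slide took 20.8% (rank 156) and group 36.7% (rank 25), the latter including the day 1 groups that chose the pair. The first 3 slides of miR-222 ran from 2.03 to 3.81 and the others from 2.23 to 4.79. The split of miR-221 was seen in its second probe as well, with medians of 5.48 and 4.89, though there the ranges overlapped.

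**Figure D4:**
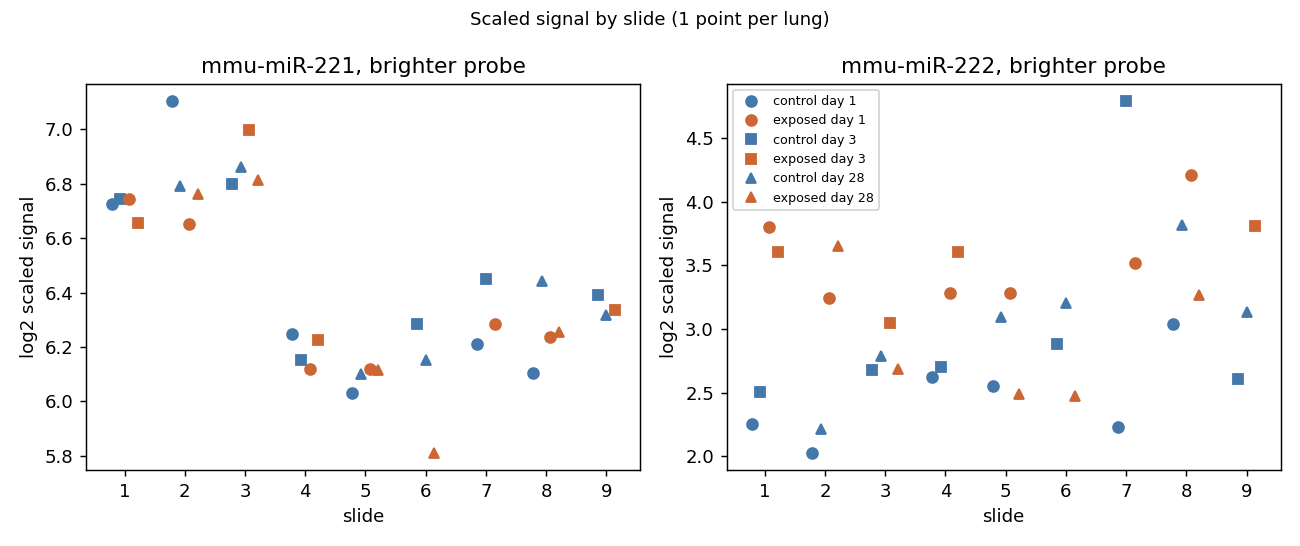
Log2 scaled signal of the brighter probe of miR-221 (left) and miR-222 (right) by slide, 1 point per lung, with colour for exposure and shape for day. The 12 arrays of slides 1 to 3 lie at 6.65 to 7.10 for miR-221, above all 21 arrays of slides 4 to 9 at 5.81 to 6.45, and the slides of miR-222 overlap.

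The 2 members did not vary together. Over the 33 arrays the brighter probes of miR-221 and miR-222 had a Pearson r of -0.11 (Spearman rho -0.033), a description over arrays that share slides and groups. After subtraction of group means r was -0.17, and after subtraction of slide means 0.12. The 2 probes of the same miRNA, by contrast, had an r of 0.88 for miR-221 and 0.86 for miR-222. On these arrays 18 of the 33 miR-222 values are not above background, which limits any such comparison.

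The miRNAs whose signal was most like that of miR-221 over the 33 arrays, among 171, were miR-139-3p (r = 0.84), miR-361 (0.69), miR-582-5p (0.59), miR-25 (0.58) and the endothelial miR-126-3p (0.58). After subtraction of group means they were miR-139-3p (0.88), miR-361 (0.72), miR-126-3p (0.66), miR-676 (0.65) and miR-582-5p (0.65). The likeness to miR-139-3p went with the slides: after subtraction of slide means its r was 0.13, rank 88, and slide took 84.1% of its variance. After that subtraction the top of the list was miR-125b-5p (0.76), miR-100 (0.76), miR-199b* (0.76), miR-99a (0.73) and miR-25 (0.72). miR-361 was then at 0.64, rank 10.

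For miR-222 the most similar miRNAs were miR-181a (r = 0.58), miR-450a-5p (0.50), the blood cell miRNA miR-142-5p (0.47), the erythroid miR-144 (0.46) and miR-17* (0.42). After subtraction of group means they were miR-181a (0.67), miR-450a-5p (0.55), miR-1196 (0.44), miR-142-5p (0.44) and miR-669h-3p (0.44). With slide means subtracted they were miR-26a (0.71), miR-30e (0.68), miR-181a (0.66), miR-142-5p (0.65) and miR-24-2* (0.65). miR-181a was among the top 3 in all 3 lists, and miR-221 ranked 108th, 120th and 56th. Only the list with group means subtracted leaves out the day 1 difference that chose the pair. miR-17*, which shared the day 1 detection pattern of miR-222, was not on that list. Of the miRNAs named, miR-17* was above background on 18 of 33 arrays, miR-1196 on 10 and miR-669h-3p on 7. Their likeness to miR-222 therefore includes values not above background.

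Other miRNAs known to repress cyclin-dependent kinase inhibitors showed no change by the test. The list of 11, from the miR-17 and miR-25 seed families, had 10 members on the array and 6 that were tested. In limma, 0 of the 6 passed in either direction on day 3 or on day 28, days on which 0 of all 172 (0%) passed. On day 3, 5 of the 6 were higher and 1 lower in exposed lungs, with a median log2 difference of 0.076, against -0.036 over all 172 miRNAs. The largest of these was miR-93, at 0.19 ± 0.098 (limma adjusted p = 0.996).

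On day 28, 2 of the 6 were higher and 4 lower, with a median of -0.054 against -0.034 over all. The largest was miR-25, at -0.21 ± 0.12 (limma adjusted p = 0.742). On day 1, with no test, the median was 0.014, with 3 higher and 3 lower, against -0.097 over all. miR-17 itself, miR-92b and miR-363 were above background on 0 of 33 arrays.

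Of 7 miRNAs known to be induced in inflammation, 4 entered the fit, and 0 passed on day 3 or day 28, as for all 172 (0%). Their median log2 difference was 0.37 on day 1 (no test), 0.097 on day 3 and 0.80 on day 28, against -0.097, -0.036 and -0.034 over all. On day 28, miR-146b differed by 1.14 ± 0.34 and miR-21 by 0.85 ± 0.23 (limma adjusted p = 0.166 and 0.157), where miR-222 was at -0.13 and miR-221 at -0.09.

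Markers of blood cells were set beside miR-222 on each day, with day 1 as a description only, since that day chose the pair. The 3 myeloid markers, miR-223, miR-142-3p and miR-142-5p, were above background on 33 arrays. On day 1 all 3 were higher in exposed lungs, with a median of 0.51 against -0.097 over all. Nothing is read from this for miR-222. Their summed scaled signal ran from 572 to 1812 in control and from 866 to 2298 in exposed lungs. On day 3, 2 of the 3 were higher, with a median of 0.016 against -0.036 over all. The sums were 919 to 1593 and 968 to 1517. On day 28 all 3 were higher, with a median of 0.15 against -0.034 over all, where miR-222 was at -0.13. The sums were 1051 to 1552 and 995 to 2094.

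The 3 erythroid markers, miR-144, miR-451 and miR-486, were also above background on 33 arrays. On day 3 all 3 were higher in exposed lungs, by 0.42 to 0.56, beside 0.49 for miR-222 and a median of -0.036 over all. Their sums ran from 4133 to 7544 in control and from 5932 to 13119 in exposed lungs. On day 28 all 3 were lower, with a median of -0.20 against -0.034 over all. The sums were 5259 to 7737 and 2936 to 8803. Their median was -0.67 for the difference between the days and -0.59 for exposed day 28 minus day 3, where miR-222 was at -0.62 and -0.61. On day 1, 1 of the 3 was higher and 2 lower, with a median of -0.022 against -0.097 over all. The sums were 5559 to 8453 and 4760 to 9094.

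The heart and skeletal muscle markers in the fit, miR-1, miR-133a and miR-133b, had median differences of 0.64 on day 1, -1.35 on day 3 and -1.35 on day 28. The summed signal of all 4 muscle markers ran from 68.6 to 445 in control and from 27.9 to 86.5 in exposed lungs of day 3, and miR-206 was above background on no array. None of these markers passed the test on day 3 or day 28. The part of myeloid, erythroid or muscle cells in the values of miR-222 was not tested.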

How the data were processed

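Per the labels, RNA of each lung, enriched for small RNA, was Cy3-labelled for Agilent miRNA arrays. Per the file headers, the deposited intensity of each spot was background-subtracted in Feature Extraction 10.7.3.1. The authors' series table was deposited as log2 values, read as log2 because its columns correlated at 0.986 to 0.994 with the scanner's log2 median signal. Its column medians were 5.41 to 5.43, and its normalization and centring stayed unknown. It served as an alternative only.

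Control spots and flagged spots (2.32%) were left out, and 0 spots were saturated. The mean processed signal per probe was scaled so that the 75th percentile of 156 probes detected on all 33 arrays was equal (629 units), floored at 1 and taken as log2. A miRNA was given by its brighter probe. limma 3.58.1 in R 4.3.3 fitted 6 group means with an intensity trend, two-sided, with Benjamini-Hochberg adjustment over 172 miRNAs above background on at least 4 arrays of a group. The script was checked on simulated data. The members and lists were chosen with earlier results of these data known. Named miRNAs are the members, those with the same seed, the 5 most similar by Pearson r, and list members as examples. Slide and scan day came from the file headers. The design text gives 6 individual mice in each group, and replicate numbers run through the series, 1 per array. The number of arrays limits the precision. Alternatives were the scaling, background correction (normexp on the median signals, offset 50, since no mean signal column was found), floor, filter, probe rule, blocks and leaving out each array. Those chosen after seeing the data were leaving out slide 1, scan day as a block and likeness after subtracting slide means.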

Additional observations from a re-analysis of the deposited data

Results flagged for a closer look

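The miR-222 value of control day 3 replicate 25 was 4.79 on the log2 scale, far above the other 5 control lungs of that day. Its gap to the nearest of them exceeded the 95% critical value of Dixon's test for 6 samples, which chance exceeds in about 1 group in 20. It was the only such value among the groups of both members.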

How the results depend on the processing

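No tested comparison of either member passed an adjusted p under 0.05 under any alternative run or with any array left out. The day 3 difference of miR-222 stayed above 0 in 14 of 14 alternatives, from 0.019 (floor of 10) to 1.00 (total gene signal), and from 0.39 to 0.84 with each array left out. The difference of miR-222 between day 28 and day 3 was -2.37 by total gene signal and -1.16 without scaling, and ran from -0.97 to -0.47 with each array left out. Its day 28 difference was -1.37 by total gene signal and -0.75 without scaling. The exposed day 28 minus day 3 values of both members kept their sign throughout. The cause of the turns below was not tested.

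Normexp turned the day 28 difference to 0.17 for miR-221 and 0.48 for miR-222, the difference between days to 0.095 and 0.38, and the control day 28 minus day 3 value of miR-222 to -0.42. The series table turned the day 28 difference of miR-221 to 0.0044, and the control values to 0.14 for miR-221 and -0.013 for miR-222. The day 3 difference of miR-221 was -0.015 with scan day and -0.019 with slide as a fixed block. The control day 28 minus day 3 value of miR-221 was 0.13 with the percentile over all probes, 0.031 with the mean over probes, 0.49 without scaling, 0.095 with quantile normalization, 0.0089 from total gene signal and 0.029 without slide 1. That of miR-222 was -0.16 with a floor of 10, -0.081 with the mean over probes and -0.089 without slide 1. On day 1, miR-221 was at 0.62 without scaling, and miR-222 at 1.76 without scaling, 2.86 from total gene signal, 0.26 with a floor of 10, 0.18 in the series table and -0.36 with normexp.

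With each array left out, miR-221 ran from -0.11 to 0.043 for control day 28 minus day 3, from -0.21 to 0.043 on day 28 and from -0.063 (without exposed day 3 replicate 11) to 0.19 on day 3. miR-222 ran from -0.14 to 0.37 for control day 28 minus day 3 and from -0.32 to 0.025 (without control day 28 replicate 28) on day 28. The median of all miRNAs moved with the scaling: on day 1 it was 0.56 without scaling, 0.087 with the percentile over all probes and -0.36 with normexp, and on day 28 -0.65, -0.28 and 0.28. For control day 28 minus day 3 these medians were 0.40, 0.032 and -0.29, beside -0.12 in the main run. With the median subtracted, the miR-221 value of that contrast was 0.094 in the main run, without scaling and with the percentile over all probes. Under the rule that every unflagged spot be above background, miR-222 counts were 1 of 4 against 1 of 6 on day 3 and 1 of 5 against 2 of 6 on day 28. By the scanner's gene flag they were 3 of 4 against 3 of 6 and 2 of 5 against 5 of 6. miR-222 has no value among miRNAs above background on all 33 arrays. By replicate number, no paired analysis was possible because each number names 1 array; lungs were paired by slide instead, as given in the report. Signal over background limits miR-222, with 18 of 33 arrays not above it.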
